A study of Mus musculus with 12 samples.

Results

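The heat shock protein and J protein genes of the mouse were followed in RNA from hippocampal tissue. Members were taken by symbol: the HSP70 and HSP110 families (Hspa and Hsph), HSP90, the chaperonin genes Hspd1 and Hspe1, small heat shock proteins (Hspb) and the J proteins named Dnaja, Dnajb or Dnajc with a number. This gave 69 of the 27978 genes in the file, 25 heat shock proteins and 44 J proteins, and 59 of them passed the filter on low values used for testing. The 12 libraries fall into FMT-CON, FMT-DSS and FMT-SP, 4 each, all from mice that had undergone fecal microbiota transplantation (FMT). The last group appears as FMT-DSS+SP in the series description, and SP refers to substance P, a neuropeptide. The labels do not spell out CON and DSS. The strain and age of the mice, when substance P was given, and whether each library is 1 animal are not stated either, so the p-values measure only the spread between these libraries. No group without transplantation is among the samples. In bulk tissue, fewer cells of a type and less RNA per cell cannot be told apart.

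HSP70 proteins bind exposed hydrophobic stretches of other proteins and release them through cycles of ATP hydrolysis. J proteins deliver substrates to HSP70 and start the hydrolysis, HSP110 proteins exchange the spent nucleotide, and HSP90 finishes the folding of kinases and steroid receptors, among them the glucocorticoid receptor. Inducible members are switched on by heat shock factor 1 when unfolded proteins accumulate in the cytosol, and the chaperones of the endoplasmic reticulum (ER) by the unfolded protein response. In neurons the same families also uncoat clathrin vesicles and keep synaptic proteins folded.

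Levels are given as FPKM, the number of fragments of a gene per kilobase of its transcript, scaled to the mapped fragments of the library, so that genes can be compared per length. The constitutive HSP70 gene Hspa8 had the highest mean over the 12 libraries, 766 FPKM, followed by the cytosolic HSP90 genes Hsp90ab1 at 632 FPKM and Hsp90aa1 at 331 FPKM. These 3 genes held 55.4% to 57.1% of all member FPKM in every library. Hsp90b1, the HSP90 of the ER, averaged 110 FPKM, Hspa5 (BiP, the HSP70 of the ER) 78.9 FPKM and Hspe1, the co-chaperonin of mitochondria, 71.2 FPKM. The stress-inducible copies Hspa1a and Hspa1b stood at 2.68 and 3.14 FPKM. Of the tested members, 4 had a mean of 100 FPKM or more, 36 a mean from 10 to 100 FPKM and 19 a mean from 1 to 10 FPKM. Their median level was 15.1 FPKM, against 7.93 FPKM over all 12559 tested genes. The summed member level was 3201 ± 156 FPKM in FMT-CON, 2926 ± 311 FPKM in FMT-DSS and 3114 ± 121 FPKM in FMT-SP (SD, n = 4 each), and the ranges of the 3 groups overlapped.

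The 10 members under the filter had means of at most 0.862 FPKM. They were Hspb2, Hspb3, Hspb7 and Hspb9, the HSP70 gene Hspa1l and the J protein genes Dnajb7, Dnajb13, Dnajc5b, Dnajc5g and Dnajc22. Of the small heat shock proteins, only Hspb8, at a mean of 9.63 FPKM, and Hspb6, at 2.76 FPKM, were tested.

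Promoter sequence was matched by symbol in a RefSeq table of the GRCm38.p6 build, in which 55 of the 69 members have a window, and the 250 bases before each annotated start were searched on both strands. The ER stress response element, searched as CCAAT and CCACG with 9 bases between them, was found in 3 members, Hspa5, Hsp90b1 and Dnajc3, or 5.45% of those with a window, against 0.130% of the 27025 genes with a window. The windows of all 3 are shown. The levels of Hspa5 and Hsp90b1 moved together across the libraries, with FMT-DSS 2 and FMT-DSS 4 lowest in both. Dnajc3 codes for a J protein of the ER that also inhibits the kinase PERK. It measured 12.3 FPKM in FMT-DSS 2 and 6.16 FPKM in FMT-DSS 4, in a range from 6.16 to 12.5 FPKM. Its correlation with Hspa5 and Hsp90b1 was not computed. Capitals mark the element, and each sequence reads 5′ to 3′ on the strand of its gene, ending at the base before the start. The Hspa5 window is chr2:34771840-34772089 on the plus strand, with the element 65 to 47 bases before the start. The Hsp90b1 window is chr10:86705445-86705694 on the minus strand, with 1 element at 212 to 194 bases and a second, on the opposite strand, at 107 to 89 bases before the start. The Dnajc3 window is chr14:118937682-118937931 on the plus strand, with the element at 105 to 87 bases before the start.
Hspa5: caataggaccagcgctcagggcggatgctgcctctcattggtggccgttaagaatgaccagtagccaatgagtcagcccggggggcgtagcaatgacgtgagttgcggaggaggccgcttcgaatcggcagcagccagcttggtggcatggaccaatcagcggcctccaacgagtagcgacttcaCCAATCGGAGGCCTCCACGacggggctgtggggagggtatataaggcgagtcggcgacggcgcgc
Hsp90b1: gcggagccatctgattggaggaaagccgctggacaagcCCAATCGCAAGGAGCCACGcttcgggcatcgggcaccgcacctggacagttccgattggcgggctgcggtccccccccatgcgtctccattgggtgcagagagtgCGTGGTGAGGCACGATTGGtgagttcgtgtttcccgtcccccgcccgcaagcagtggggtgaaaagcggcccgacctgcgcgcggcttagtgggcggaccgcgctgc
Dnajc3: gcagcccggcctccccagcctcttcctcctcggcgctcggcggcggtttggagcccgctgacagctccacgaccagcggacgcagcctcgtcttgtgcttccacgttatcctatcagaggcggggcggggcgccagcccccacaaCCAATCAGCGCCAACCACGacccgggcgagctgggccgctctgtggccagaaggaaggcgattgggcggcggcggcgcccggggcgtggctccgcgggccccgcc

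The heat shock element of 3 units, searched as GAA, TTC and GAA in this order with 2 bases between neighbours, occurred in 3 members, Dnajb6, Hspd1 and Hspe1, or 5.45%, against 0.514% of all genes with a window. Hspd1 (HSP60) and Hspe1 (HSP10) form the folding chamber of mitochondria, and their genes lie head to head, so that 1 stretch lies upstream of a start of each. The 215 bases between the Hspe1 start and that Hspd1 start, chr1:55087933-55088147 of GRCm38.p6, are shown on the plus strand, the strand of Hspe1. Another annotated Hspd1 start lies beyond the Hspe1 start. Its window, chr1:55088244-55088493, held 0 matches to the heat shock element and shared 0 bases with the Hspe1 window. Capitals mark overlapping matches to the 3-unit element, 1 on each strand.
Hspd1 and Hspe1: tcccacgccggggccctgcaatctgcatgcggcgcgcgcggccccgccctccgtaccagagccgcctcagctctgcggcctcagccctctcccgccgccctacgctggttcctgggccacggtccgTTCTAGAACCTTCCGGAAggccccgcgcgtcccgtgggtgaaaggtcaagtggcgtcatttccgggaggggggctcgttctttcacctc
The 2-unit forms overlap the longer element by construction. GAANNTTC was found in 10 members (18.2%, against 7.73% of all genes with a window) and TTCNNGAA in 6 members (10.9%, against 8.11%). A match describes the letters of these windows and is not a measured binding site.

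No member passed an adjusted p of 0.05 in limma in any of the 3 comparisons, and 0% of the 12559 tested genes did. The smallest adjusted p of a member in limma was 0.966 for FMT-DSS against FMT-CON, 0.999 for FMT-SP against FMT-DSS and 1.0 for FMT-SP against FMT-CON. At an unadjusted p under 0.05, 5 of 59 members (8.47%) differed between FMT-DSS and FMT-CON, against 4.06% of all genes: 1 was higher (1.25% of all genes) and 4 were lower (2.81% of all genes). In FMT-SP against FMT-DSS it was 1 member, which was lower (1.69%, against 1.23% of all genes lower, 1.27% higher and 2.5% in either direction), and in FMT-SP against FMT-CON 0 members against 0.358% (0.0637% higher and 0.295% lower). The median width of a member's 95% interval in FMT-DSS against FMT-CON was 0.28 to either side on the log2 scale. The first 2 comparisons share the 4 FMT-DSS libraries, so they are not independent of each other.

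**Figure D1:**
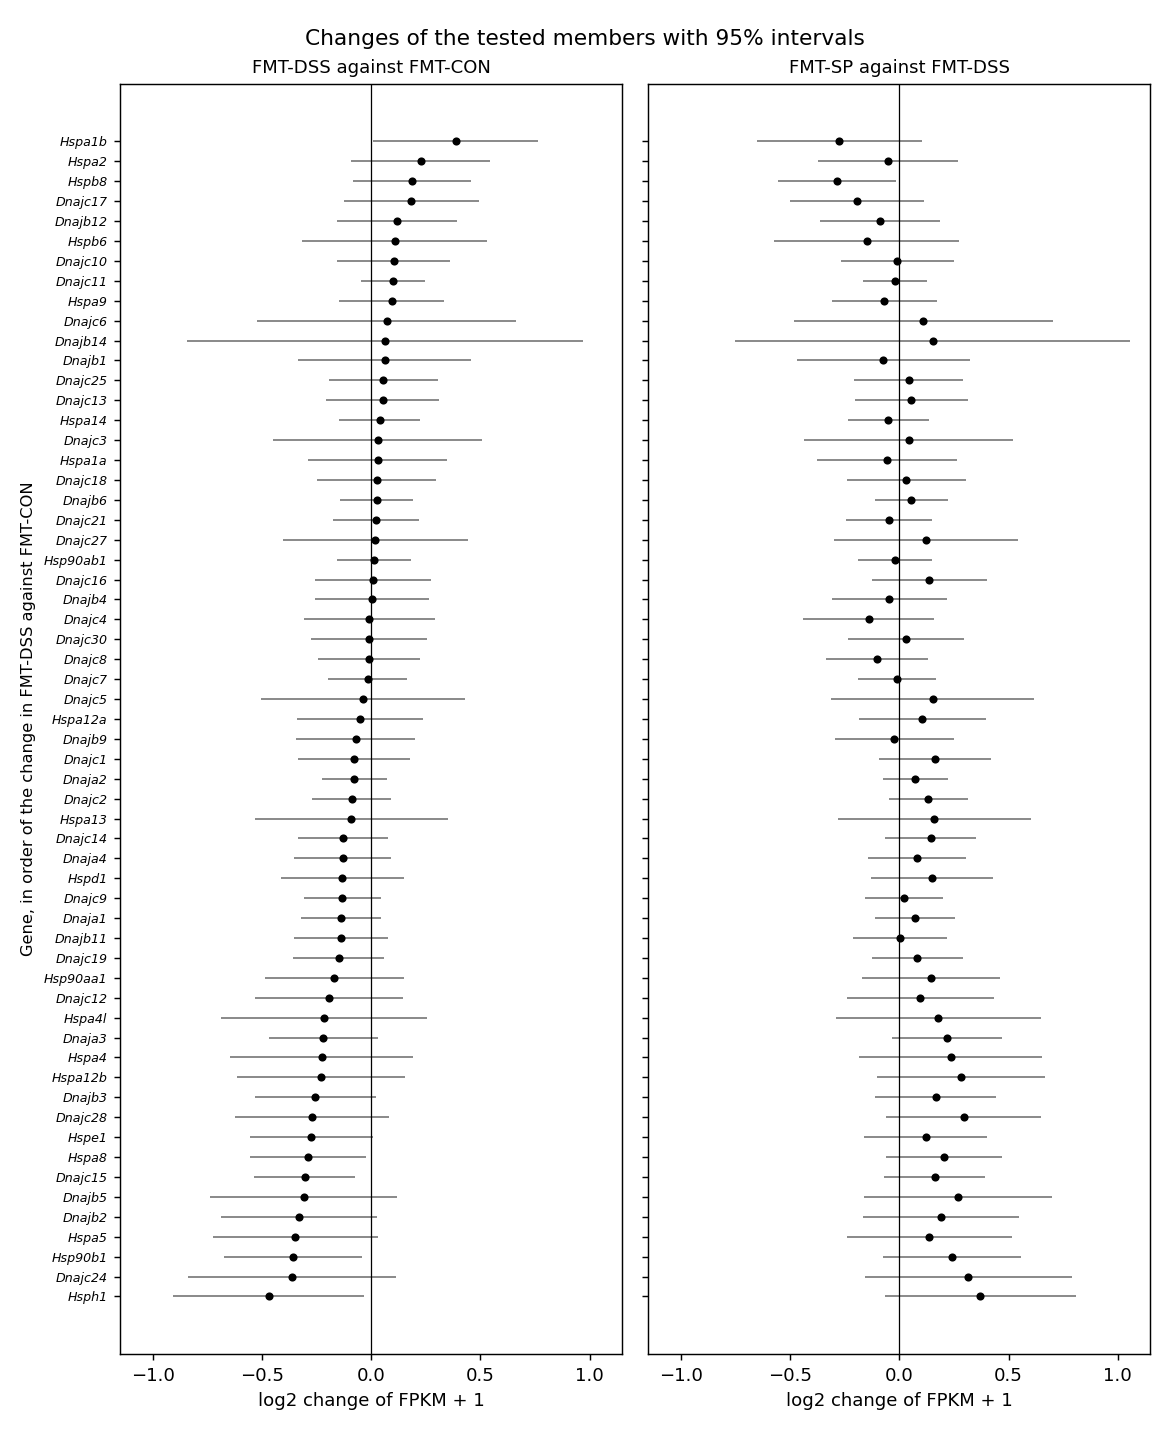
Difference in mean log2(FPKM + 1) of the 59 tested members (points) with 95% intervals from limma (lines), FMT-DSS minus FMT-CON on the left and FMT-SP minus FMT-DSS on the right, genes in the order of the left panel. Most intervals include 0; Hsph1 has the lowest value on the left, -0.47, and Hspa1b the highest, 0.39.

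Differences between groups are differences of mean log2(FPKM + 1), with their standard error (SE) from the model, a scale that understates the change of genes at low level. The mean was lower in FMT-DSS than in FMT-CON in 35 members and higher in 24, or 40.7% higher, against 40.3% of all genes. The median difference over the members was -0.05, and -0.03 over all genes. Without FMT-DSS 2 and FMT-DSS 4 the split turned to 28 lower and 31 higher, with a median of 0.0073. With median-ratio rescaling it was 30 and 29, with a median of -0.0044, and without FMT-CON 4 it was 42 and 17, with a median of -0.11, so this direction depends on FMT-DSS 2 and FMT-DSS 4 and on the scaling. By role, all 3 HSP110 members, all 3 class A J proteins of the cytosol and 8 of 10 mitochondrial members had lower means in FMT-DSS. Without FMT-DSS 2 and FMT-DSS 4, Hspa4 (0.010), Hspa4l (0.014), Dnaja4 (0.036), Dnajc28 (0.043) and Hspd1 (0.013) turned to higher, and the rest of these stayed lower. Of the cytosolic HSP70 members 4 of 7, of the ER members 7 of 12 and of the vesicle J proteins 3 of 4 had higher means. Here and below, counts by role place Hsp90b1, which had a lower mean (-0.36), with HSP90 and not with the ER members.

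Hspa8 codes for the HSP70 that neurons express without stress and that strips clathrin from synaptic vesicles. It measured 845, 853, 803 and 815 FPKM in FMT-CON 1 to 4, 766, 604, 837 and 545 FPKM in FMT-DSS 1 to 4, and 752, 762, 830 and 786 FPKM in FMT-SP 1 to 4. FMT-DSS 2 and FMT-DSS 4 were the lowest of the 12 libraries, and FMT-DSS 3 lay within the range of FMT-CON. The difference of FMT-DSS from FMT-CON was -0.29 ± 0.12 (SE; unadjusted p = 0.0345, adjusted p = 0.966 in limma), and that of FMT-SP from FMT-DSS was 0.21 ± 0.12 (adjusted p = 0.999 in limma). Without FMT-DSS 2 and FMT-DSS 4 the differences were -0.05 and -0.03. The ratio of Hspa8 to Hsp90ab1, which a common scaling factor leaves as it is, was 0.850 in FMT-DSS 2 and 0.916 in FMT-DSS 4, and 1.20 to 1.37 in the other 10 libraries.

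Hsph1, a heat-inducible exchange factor of the HSP110 family, had the lowest difference of any member in FMT-DSS against FMT-CON. Its levels were 52.3, 56.6, 54.3 and 49.0 FPKM in FMT-CON, 49.8, 36.9, 49.9 and 22.5 FPKM in FMT-DSS, and 48.7, 42.5, 54.3 and 52.8 FPKM in FMT-SP, each in the order of replicates 1 to 4. The groups overlapped, since FMT-DSS 1 and FMT-DSS 3 were above the lowest FMT-CON library. The difference from FMT-CON was -0.47 ± 0.20 (unadjusted p = 0.0372, adjusted p = 0.966 in limma) with all libraries and -0.09 with FMT-DSS 2 and FMT-DSS 4 left out. In FMT-SP against FMT-DSS the values were 0.37 ± 0.20 (adjusted p = 0.999 in limma) and -0.01. The other HSP110 genes, Hspa4 and Hspa4l, differed by -0.23 ± 0.19 and -0.22 ± 0.22 between FMT-DSS and FMT-CON, and by 0.010 and 0.014 without FMT-DSS 2 and FMT-DSS 4.

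**Figure D2:**
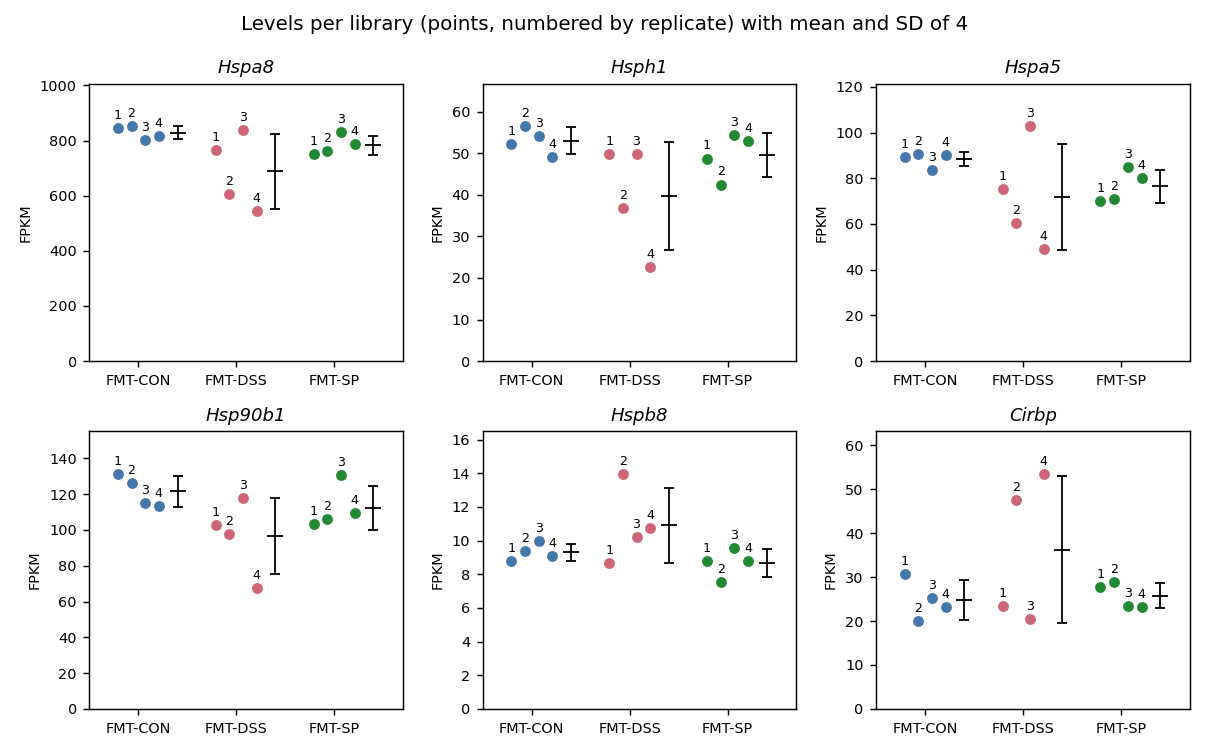
FPKM per library (points numbered by replicate) of 5 members and of Cirbp, which codes for a cold-inducible RNA-binding protein, with the mean and SD of the 4 libraries of each group beside the points. FMT-DSS 2 and FMT-DSS 4 are the lowest of 12 libraries in Hspa8, Hsph1, Hspa5 and Hsp90b1, and the highest in Hspb8 and Cirbp.

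In the ER, Hspa5 measured 89.1, 90.5, 83.7 and 90.1 FPKM in FMT-CON, 75.3, 60.3, 102.9 and 49.1 FPKM in FMT-DSS, and 70.2, 70.9, 84.9 and 80.2 FPKM in FMT-SP. FMT-DSS held both the highest and the lowest library of the 12, with an SD of 23.3 FPKM against 3.16 FPKM in FMT-CON. The difference between these groups was -0.35 ± 0.17 (adjusted p = 0.966 in limma), and -0.0047 without FMT-DSS 2 and FMT-DSS 4. Hsp90b1 (GRP94), its partner in the ER lumen, measured 131, 126, 115 and 113 FPKM in FMT-CON, 103, 97.6, 118 and 67.3 FPKM in FMT-DSS, and 103, 106, 130 and 110 FPKM in FMT-SP. Here too FMT-DSS 2 and FMT-DSS 4 were below all others while FMT-DSS 3 was within the range of FMT-CON. The difference of FMT-DSS from FMT-CON was -0.36 ± 0.15 (unadjusted p = 0.0304, adjusted p = 0.966 in limma), and -0.14 without those 2 libraries.

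Of the J proteins of the ER, Dnajc1 had the same 2 libraries lowest, at 1.81 and 2.10 FPKM against 2.19 to 2.89 FPKM in the others, and Dnajb11, Dnajb9 and Dnajc3 did not. Dnajb11, a cofactor of BiP, ranged from 12.2 to 16.6 FPKM and differed by -0.14 ± 0.10 between FMT-DSS and FMT-CON. Dnajb9, an unfolded protein response gene, ranged from 19.4 to 28.1 FPKM, and its highest library was FMT-DSS 2. Dnajc3 measured 11.9, 11.2, 8.31 and 6.85 FPKM in FMT-CON, 10.5, 12.3, 10.5 and 6.16 FPKM in FMT-DSS, and 9.93, 10.9, 12.5 and 7.12 FPKM in FMT-SP. Its low libraries were the 3 numbered 4, and FMT-DSS 2 was next to the highest.

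Of the cytosolic HSP90 genes, Hsp90ab1 was among the least variable members, between 595 and 711 FPKM, with a coefficient of variation (CV, the SD as a percent of the mean) of 5.0% over the 12 libraries. Its difference was 0.01 ± 0.08 in FMT-DSS against FMT-CON, with a 95% interval from -0.16 to 0.18, and -0.02 ± 0.08 in FMT-SP against FMT-DSS, with an interval from -0.19 to 0.15. Hsp90aa1, the more inducible of the pair, was at 345 ± 42.9 FPKM in FMT-CON, 310 ± 60.9 FPKM in FMT-DSS and 338 ± 33.8 FPKM in FMT-SP (SD, n = 4). Its lowest library was FMT-DSS 4, at 227 FPKM, and its difference between FMT-DSS and FMT-CON was -0.17 ± 0.15.

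The stress-inducible Hspa1b was the member with the highest difference in FMT-DSS against FMT-CON. It measured 1.60, 2.75, 3.59 and 2.85 FPKM in FMT-CON, 3.51, 3.24, 3.52 and 4.82 FPKM in FMT-DSS, and 3.39, 3.30, 2.22 and 2.86 FPKM in FMT-SP. All 4 FMT-DSS libraries were above 3 of the 4 FMT-CON libraries, and the groups overlapped through FMT-CON 3. The difference was 0.39 ± 0.17 (unadjusted p = 0.0456, adjusted p = 0.966 in limma), and 0.32 without FMT-DSS 2 and FMT-DSS 4. Both values use FMT-CON 1, which at 1.60 FPKM was the lowest of the 12 libraries for Hspa1b. With FMT-CON 1 left out, 0 members were higher at an unadjusted p under 0.05 in limma, so Hspa1b did not reach it. That count was also 0 with FMT-CON 2 or FMT-CON 4 left out, and 1 with FMT-CON 3 left out. Hspa1a, the copy of Hspa1b, was at 2.71 ± 0.742, 2.75 ± 0.487 and 2.59 ± 0.228 FPKM in FMT-CON, FMT-DSS and FMT-SP, with a difference of 0.03 ± 0.15 in FMT-DSS against FMT-CON. In the reference transcripts, 47.1% of the 100-base stretches of Hspa1a also occur in Hspa1b and 49.9% of those of Hspa1b in Hspa1a, so the share of each copy depends on how shared reads were counted and is uncertain. Hspa2, an HSP70 with a known role in sperm development, differed by 0.23 ± 0.15 in the same comparison, and Hspa12a and the endothelial Hspa12b by -0.05 ± 0.13 and -0.23 ± 0.18.

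In mitochondria, Dnajc15, a J protein of the inner membrane, had the smallest p of any member. It measured 42.5, 33.9, 36.5 and 29.0 FPKM in FMT-CON, 28.9, 28.2, 30.0 and 26.3 FPKM in FMT-DSS, and 30.2, 30.7, 35.3 and 31.1 FPKM in FMT-SP. FMT-DSS lay below 3 of the 4 FMT-CON libraries and below all 4 FMT-SP libraries. The difference was -0.31 ± 0.11 against FMT-CON (unadjusted p = 0.0139, adjusted p = 0.966 in limma) and 0.16 ± 0.11 for FMT-SP against FMT-DSS. Against FMT-CON it was -0.25 without FMT-DSS 2 and FMT-DSS 4, so it depended less on those libraries than the differences of Hspa8 and Hsph1 did. FMT-CON 1, at 42.5 FPKM, was the highest of the 12 libraries in Dnajc15 and enters both of these values.

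Hspe1 measured 77.1, 69.4, 85.9 and 80.4 FPKM in FMT-CON, 56.1, 56.5, 78.3 and 68.8 FPKM in FMT-DSS, and 65.3, 60.0, 73.2 and 83.7 FPKM in FMT-SP. FMT-DSS 1 and FMT-DSS 2 were the lowest libraries, and the groups overlapped. The difference of FMT-DSS from FMT-CON was -0.27 ± 0.13 (unadjusted p = 0.0545, adjusted p = 0.966 in limma). Hspd1, its partner in the chaperonin, differed by -0.13 ± 0.13 and had its lowest library in FMT-DSS 4, at 36.6 FPKM. Hspa9 (mortalin), the HSP70 of the mitochondrial matrix, was at 61.8 ± 7.03, 66.1 ± 8.47 and 62.8 ± 5.59 FPKM in FMT-CON, FMT-DSS and FMT-SP.

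Hspb8, a small heat shock protein of the selective autophagy complex with Bag3, was the member with an unadjusted p under 0.05 in FMT-SP against FMT-DSS. It measured 8.79, 9.39, 9.97 and 9.10 FPKM in FMT-CON, 8.64, 14.0, 10.2 and 10.8 FPKM in FMT-DSS, and 8.79, 7.51, 9.55 and 8.81 FPKM in FMT-SP. FMT-DSS 2 stood highest and FMT-DSS 1 was below 3 of the 4 FMT-SP libraries. The difference of FMT-SP from FMT-DSS was -0.29 ± 0.12 (unadjusted p = 0.0399, adjusted p = 0.999 in limma), and -0.11 without FMT-DSS 2 and FMT-DSS 4. After it in order of p came Dnaja3, a J protein of mitochondria, at 0.22 ± 0.12, Hsph1, and Dnajc28 at 0.29 ± 0.16.

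Means were higher in FMT-SP than in FMT-DSS in 40 members and lower in 19, or 67.8% higher, against 58.9% of all genes. The median difference was 0.08 over the members and 0.03 over all genes. The median over the members was 0.01 with FMT-DSS 4 left out and -0.02 with FMT-DSS 2 left out as well. For some of the members described above the pairs of values, FMT-DSS minus FMT-CON and FMT-SP minus FMT-DSS, were -0.29 and 0.21 in Hspa8, -0.47 and 0.37 in Hsph1, -0.36 and 0.24 in Hsp90b1, and -0.31 and 0.16 in Dnajc15. They were -0.35 and 0.14 in Hspa5, -0.27 and 0.12 in Hspe1, 0.39 and -0.28 in Hspa1b, and 0.01 and -0.02 in Hsp90ab1. Without FMT-DSS 2 and FMT-DSS 4 the second value was 0.02 in Hsp90b1, -0.20 in Hspa5, 0.11 in Dnajc15 and 0.08 in Hspe1. Because the FMT-DSS libraries enter both values with opposite sign, no relation between them was tested.

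In FMT-SP against FMT-CON, which does not use the FMT-DSS means, 27 members had higher and 32 lower means, with a median difference of -0.01. The split was 34 higher and 25 lower when each library was rescaled to the same total without the mitochondrially encoded genes, so this direction depends on the scaling. The smallest unadjusted p-values in limma, between 0.202 and 0.255, belonged to Dnajc15 (-0.14), Dnajb11 (-0.13), Dnajc9 (-0.11), Dnajc16 (0.15), Hspa5 (-0.21) and Hspa2 (0.18). Hspa5 was below every FMT-CON library in FMT-SP 1, FMT-SP 2 and FMT-SP 4.

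Groups that did not overlap were few. Between FMT-DSS and FMT-CON, 1 member was higher in every library (0.518% of all genes) and 2 were lower (1.23% of all genes). The higher one was Dnajc11, a J protein of mitochondria, at 11.6 to 12.6 FPKM in FMT-CON and 12.8 to 13.5 FPKM in FMT-DSS, a difference of 0.10 ± 0.07. The lower ones were Dnajb3, at 1.27 to 1.82 against 0.823 to 1.25 FPKM, and Dnajc9, a histone chaperone, at 15.4 to 16.9 against 13.4 to 15.2 FPKM. Between FMT-SP and FMT-DSS, 2 members were higher in every FMT-SP library, against 0.565% of all genes, and 0 were lower, against 0.709%. They were Dnajc15 and Dnaja2, a class A J protein at 54.7 to 58.9 FPKM in FMT-DSS and 59.3 to 61.0 FPKM in FMT-SP. Dnajc11, at 12.7 to 13.2 FPKM in FMT-SP, was also the 1 member that lay above FMT-CON throughout in FMT-SP, against 0.191% of all genes, and 0 lay below it, against 0.303%. The 2 least variable members of all were Dnajc11, with a CV of 4.08%, and Dnaja2, with 4.83%, and the 95% intervals of the differences given here for them include 0.

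A pair of libraries, FMT-DSS 2 and FMT-DSS 4, was known from earlier results on these data to stand apart, and the following counts are descriptions of it. Both were below all other 10 libraries in 14 of 59 members (23.7%), against 10.7% of all tested genes. Besides Hspa8, Hsph1, Hspa5, Hsp90b1 and Dnajc15, these were Dnaja3, Dnaja4, Dnajb2, Dnajb3, Dnajb5, Dnajc1, Dnajc14, Dnajc24 and Dnajc28. Dnajb2, a J protein of neurons that hands clients to the proteasome, was at 14.6 and 15.3 FPKM in these libraries and at 17.1 to 26.3 FPKM in the other 10. Dnajb5 was at 22.5 and 26.7 FPKM, against 32.7 to 48.3 FPKM. Both libraries were above all others in 2 members, Hspb8 and Dnajc17 (3.39%, against 4.79% of all genes).

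Other genes set these libraries apart as well. Cirbp and Rbm3, which code for RNA-binding proteins known to rise in the cold, were at 47.6 and 23.2 FPKM in FMT-DSS 2 and at 53.6 and 37.5 FPKM in FMT-DSS 4, against at most 30.7 and 22.5 FPKM elsewhere. A list of 15 glucocorticoid-responsive genes summed to 1522 and 1452 FPKM, against 510 to 961 FPKM elsewhere. In both libraries 10 of its genes were above all others, against 4.79% of all genes, and the list was chosen with earlier results known. The 11 microglia markers in the file summed to 84.4 and 61.8 FPKM, against 105 to 142 FPKM, and none was at 0 in all libraries. Erythrocyte markers summed to 588 and 717 FPKM, but the highest sum, 1337 FPKM, was in FMT-SP 2. The part of these genes in the member levels was not tested.

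Among the co-chaperones, 4 of 31 tested genes (12.9%) were below all other libraries in the same pair, close to the 10.7% of all genes. Stip1 (HOP), which joins HSP70 to HSP90, was at 63.7 and 61.3 FPKM, against 72.2 to 95.9 FPKM, and Fkbp4, an HSP90 partner in steroid receptor complexes, at 39.2 and 36.7 FPKM, against 46.2 to 68.2 FPKM. Chordc1 and Ahsa1, named here after their values were seen, also bind HSP90, and Chordc1 was at 7.04 and 11.3 FPKM, against 20.0 to 26.7 FPKM. Fkbp5, a glucocorticoid-induced HSP90 partner, was above all others in both libraries. Of 14 lectin chaperones and disulfide isomerases of the ER, 7 (50%, against the same 10.7%) were below all other libraries: Calr, Pdia4, Pdia6, Sdf2l1, Creld2, Manf and Ero1b. Of the heat shock factors and their regulators (4 tested) and the nucleotide exchange factors of HSP70 (11 tested), 0 genes were.

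The partner lists were also set against the groups, and 0 of their genes passed the adjusted threshold of limma in any comparison. In FMT-DSS against FMT-CON, where 59.7% of all genes had lower means and 4.06% an unadjusted p under 0.05, 12 of 14 ER lectin chaperones and isomerases (85.7%) had lower means, 4 at an unadjusted p under 0.05, with a median difference of -0.25. Pdia3 differed by -0.33 ± 0.11 and Calr (calreticulin) by -0.35 ± 0.15. Among co-chaperones 21 of 31 (67.7%) had lower means, near the share of all genes, 5 genes were at an unadjusted p under 0.05 in either direction, and the median was -0.07. Stip1 differed by -0.35 ± 0.10, Fkbp4 by -0.41 ± 0.13 and, in the other direction, Fkbp5 by 0.63 ± 0.18. Of the cytosolic chaperonin and prefoldin genes 12 of 14 had lower means, with a median of -0.11, and of the exchange factors 4 of 11, with a median of 0.03 and Bag5 at 0.24 ± 0.09. Hsf1, the heat shock factor, was at 16.2 ± 3.42 FPKM in FMT-CON, 14.1 ± 4.29 FPKM in FMT-DSS and 14.0 ± 2.87 FPKM in FMT-SP (SD, n = 4). In FMT-SP against FMT-DSS, means were higher in 12 of 14 ER genes (85.7%) and 20 of 31 co-chaperones (64.5%), against 58.9% of all genes, with 0 and 1 at an unadjusted p under 0.05. The FMT-DSS libraries enter these counts too, with FMT-DSS 2 and FMT-DSS 4 below all others in 7 of the ER genes. In FMT-SP against FMT-CON, 13 of 14 ER genes (92.9%) had lower means, against 53.3% of all genes, with 0 at an unadjusted p under 0.05. Lower means there were also found in 13 of 14 chaperonin and prefoldin genes, 19 of 31 co-chaperones and 4 of 11 exchange factors. The glucocorticoid-responsive genes had higher means in FMT-DSS than in FMT-CON in 15 of 15 (40.3% of all genes), 9 of them at an unadjusted p under 0.05. Means in FMT-SP were lower than in FMT-DSS in 15 of 15. The FMT-DSS libraries enter both counts, with FMT-DSS 2 and FMT-DSS 4 highest in 10 of these genes. In FMT-SP against FMT-CON 8 had higher and 7 lower means.

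**Figure D3:**
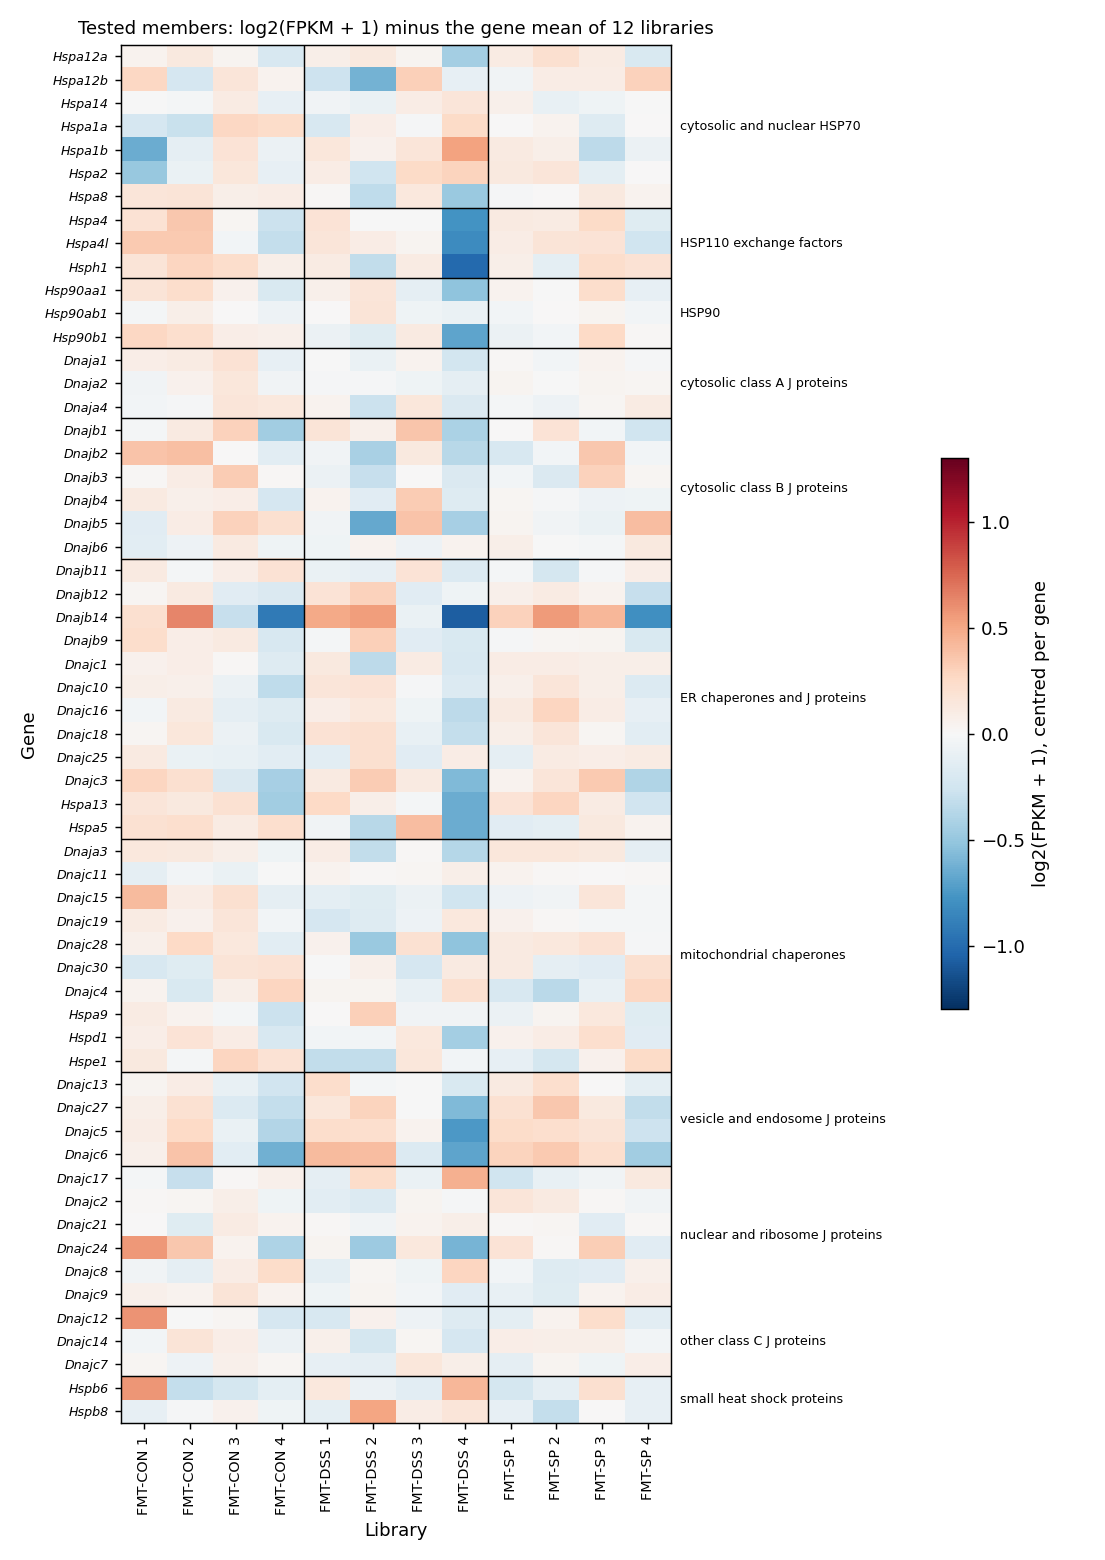
Level of each of the 59 tested members per library as log2(FPKM + 1) minus the mean of the gene over 12 libraries, ordered by role (labels at the right); red is above and blue below the mean of the gene. FMT-DSS 4 is low in the HSP110 genes, most ER members and the vesicle J proteins, and the libraries numbered 4 are low together in the vesicle J proteins.

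A second order of libraries ran across the groups. The 3 libraries numbered 4 were below all other 9 in 15 of 59 members (25.4%), against 17.1% of all genes, and above them in 1 member, Dnajc4 (1.69%, against 9.05%). The lower ones included all 4 tested vesicle and endosome J proteins, 6 of 12 ER members, Hspa4, Hspa4l, Hspa12a, Hspd1 and Dnajb1, the J protein that works with inducible HSP70. Dnajc6 (auxilin), which recruits Hspa8 to clathrin coats, measured 39.3, 48.9, 34.0 and 24.0 FPKM in FMT-CON, 50.4, 50.0, 33.1 and 23.1 FPKM in FMT-DSS, and 46.1, 47.8, 43.8 and 27.2 FPKM in FMT-SP. Dnajc5 (cysteine string protein), the J protein of synaptic vesicles, was at 43.6, 33.6 and 47.3 FPKM in the libraries numbered 4 of FMT-CON, FMT-DSS and FMT-SP and at 53.9 to 68.9 FPKM in the other 9. Dnajb14, a J protein of the ER membrane, was the most variable tested member, with a CV of 42.3%, at 2.71, 2.33 and 3.04 FPKM against 4.72 to 9.86 FPKM. The mitochondrially encoded genes made up 27.7%, 29.0% and 24.0% of all FPKM in the libraries numbered 4 and 15.9% to 20.3% in the others, and their part in the member levels was not tested.

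**Figure D4:**
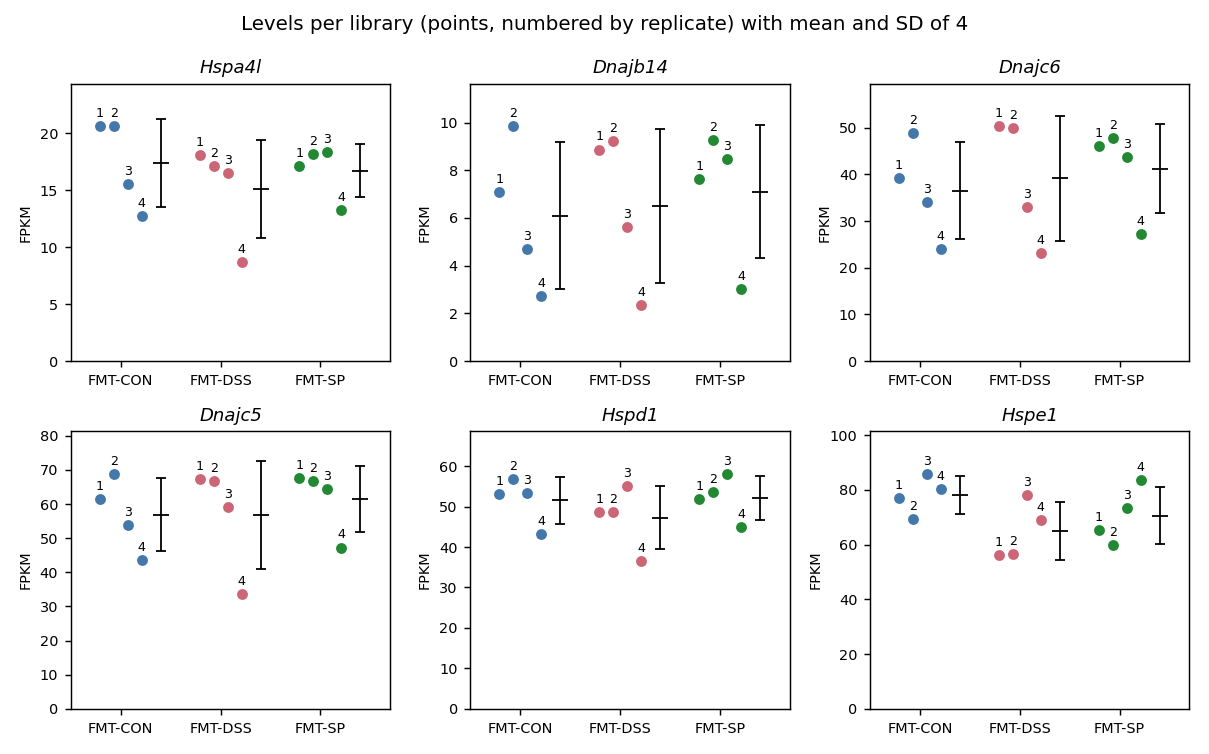
FPKM per library (points numbered by replicate) of 6 members with the mean and SD of the 4 libraries of each group. In Hspa4l, Dnajb14, Dnajc6, Dnajc5 and Hspd1 the library numbered 4 is the lowest of each group, and in Hspe1 it is not.

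After Dnajb14 the most variable tested members were Dnajc24, needed to make diphthamide (CV 29.2%), Hspb6 (28.5%), Dnajc6 (26.5%), Hspa12b (26.1%) and Hspa1b (25.3%). The steadiest after Dnajc11, Dnaja2 and Hsp90ab1 were Dnajb6, a suppressor of protein aggregation (5.93%), Dnajc7 (6.37%) and Hspa14 (6.63%). The median CV of the tested members was 13.8%, and that of all tested genes 16.3%. Dnaja1 and Dnaja4, the other class A J proteins, had CVs of 7.62% and 9.57%, and Dnajc12, a J protein for aromatic amino acid hydroxylases, 19.7%, with its highest level, 12.2 FPKM, in FMT-CON 1.

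Correlations across the 12 libraries were computed on log2(FPKM + 1) for 4 pairs, with two-sided permutation tests of 100000 resamples and adjustment over the 4 pairs. Hspa5 and Hsp90b1 gave a Pearson r of 0.89 (permutation p = 2.1e-04, adjusted 8.4e-04) and a Spearman rho of 0.85 (permutation p = 0.00102, adjusted 0.00408). The libraries farthest from the median of Hspa5 were FMT-DSS 2 and FMT-DSS 4. Without them r was 0.68 (permutation p = 0.0297), and adjusted over the 4 pairs it missed the threshold at 0.119, so the strength of the relation rests in part on those libraries. In the 9 libraries not numbered 4, r was 0.80 (exact permutation p = 0.0106, adjusted 0.0425) and rho 0.80.

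Hspd1 and Hspe1, which share the stretch printed above, gave r = -0.00 (permutation p = 0.993) and rho = 0.05 (permutation p = 0.886) over the 12 libraries. Without FMT-CON 4 and FMT-DSS 4, the farthest from the median of Hspd1, r was 0.14. In the 9 libraries not numbered 4, r was 0.62 (exact permutation p = 0.0770, adjusted 0.135) and rho 0.53, so the pooled value and the value within those libraries differed, and neither passed the threshold. Their annotated exons overlap, and whether reads were counted by strand is not given in the sources used here.

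**Figure D5:**
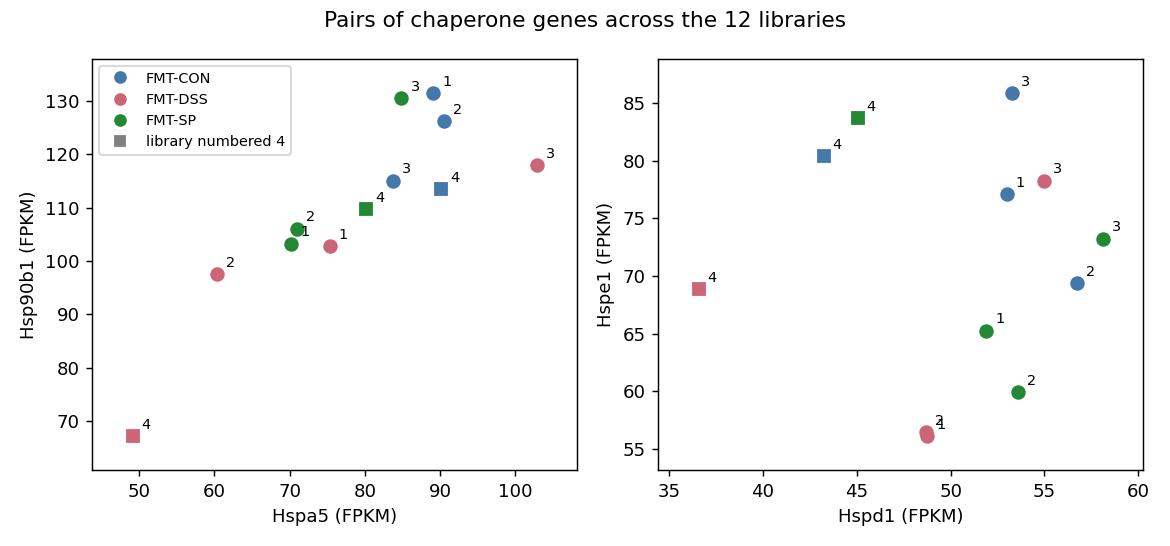
FPKM of Hspa5 and Hsp90b1 (left) and of Hspd1 and Hspe1 (right) in the 12 libraries, coloured by group, with squares for the libraries numbered 4. On the left the points rise together, with FMT-DSS 4 far below the rest; on the right the 3 squares lie to the left of the other 9 points.

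Hspa1a and Hspa1b gave r = 0.59 (permutation p = 0.0377, adjusted 0.0754) and rho = 0.56 (permutation p = 0.0631, adjusted 0.126), and r = 0.61 without FMT-CON 2 and FMT-CON 3. In the 9 libraries not numbered 4, r was 0.58 (exact permutation p = 0.101, adjusted 0.135). The copies share sequence, which ties their values. Hsph1 and Dnajb1, which work together with HSP70 in taking aggregates apart, gave r = 0.42 (permutation p = 0.182, adjusted 0.243) and rho = 0.16 (permutation p = 0.619, adjusted 0.826). Without FMT-DSS 2 and FMT-DSS 4, r was -0.04, and in the 9 libraries not numbered 4 it was 0.04 (exact permutation p = 0.927). It was -0.05 with FMT-DSS 4 alone left out and 0.46 with FMT-DSS 2 alone left out, so the pooled value rests on FMT-DSS 4.

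The estimated depth was 31.4 to 37.3 M mapped fragments per library (M, 1000000 fragments). All 10 markers of hippocampal neurons had a mean of at least 1 FPKM, with sums of 1026 to 1474 FPKM per library. Markers of tissue other than hippocampus varied between libraries: choroid plexus markers summed to 19.4 to 3858 FPKM, and pituitary markers to 3592 FPKM in FMT-CON 3 against 2.99 to 24.0 FPKM in the others. Thalamus markers summed to 13.3 to 214 FPKM, highest in FMT-CON 1, and striatum markers to 74.1 to 438 FPKM, highest in FMT-DSS 3. Without FMT-CON 3, the limma fit of FMT-DSS against FMT-CON gave 0 members at an adjusted p of 0.05. At an unadjusted p under 0.05 it gave 4 members and 354 of all 12559 tested genes. Exons of 27 of the 69 members overlap another annotated gene, among them Dnaja3, Hspa12a and Hspb2, and without strand their reads cannot be told apart from those of that gene.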

How the data were processed

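RNA-seq was done on total RNA of hippocampal tissue, and the titles of the samples gave 3 groups of 4 libraries. The deposited table holds 1 FPKM value per gene and library, computed by the authors. HISAT2 2.0 and the build mm8 are named without a role, per the submitters' processing notes. The sources used here do not give the counter, the annotation or the strand setting, and no gene coordinates were taken from the table. Depth was estimated from the steps of low FPKM values in 4713 genes with a single transcript, and 34.3% to 37.7% of those values lay within 0.05 of a whole fragment, against 10% by chance.

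Values were tested as log2(FPKM + 1) for the 12559 genes whose mean reached 1 FPKM, in 1 linear model over all libraries (limma 3.58.1, R 4.3.3; eBayes with trend, two-sided) with Benjamini-Hochberg adjustment over all tested genes at a threshold of 0.05. On simulated data for FMT-DSS against FMT-CON (12559 genes, 200 of them changed) the model called 36% of 1.5-fold, 82% of 2-fold and 99% of 4-fold changes of FPKM + 1. Genes were drawn independently there, without the deviations that real libraries share across genes, so these shares need not hold for the real data. Correlations were computed in R 4.3.3 too, and levels, list sums and promoter matches in Python 3.11.15 with numpy 2.4.6. Promoter sequence came from RefSeq, build GRCm38.p6. Members and lists were chosen with earlier results of these data known. Genes named were a set of members by role, the 6 members of smallest p per comparison, the 6 of highest level and of highest and lowest CV, members with groups that did not overlap, and the 2 genes of smallest p per partner list with Hsf1, Fkbp5, Cirbp and Rbm3. Others are named as members of counts of libraries. The alternatives were another pseudocount, 2 other filters, 3 rescalings, array weights, a replicate block, a fit of 8 libraries, and fits without single libraries, without those numbered 4, and without FMT-DSS 2 and FMT-DSS 4.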

Additional observations from a re-analysis of the deposited data

Results flagged for a closer look

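In 6 of 126 groups of 4 libraries (42 members examined), 1 library lay far from the other 3 by Dixon's test, and chance gives about 1 in 20 groups. Dnaja3 was at 18.2 FPKM in FMT-SP 4, with 21.7 to 22.1 FPKM in the other FMT-SP libraries. Dnajc5 was at 47.3 FPKM in FMT-SP 4, with 64.4 to 67.7 FPKM in the others. Dnajc9 was at 16.9 FPKM in FMT-CON 3, with 15.4 to 15.6 FPKM in the others. Hspa4l was at 8.68 FPKM in FMT-DSS 4, with 16.5 to 18.0 FPKM in the others. Hspa9 was at 78.7 FPKM in FMT-DSS 2, with 61.1 to 63.4 FPKM in the others. Hspb6 was at 4.50 FPKM in FMT-CON 1, with 1.97 to 2.38 FPKM in the others.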

How the results depend on the processing

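Under every alternative run, 0 members passed the adjusted threshold of limma in any comparison. At an unadjusted p under 0.05 in limma, FMT-DSS against FMT-CON held 5 members and 510 of 12559 genes, and both counts moved. They were 0 members and 162 genes with both FMT-DSS 2 and FMT-DSS 4 left out, and 3 and 369 without the libraries numbered 4. A fit of 8 libraries gave 2 and 360, and array weights gave 3 and 432. Leaving out single libraries gave 1 member (451 genes, without FMT-CON 1) to 12 members (1198 genes, without FMT-DSS 3). There were 2 members without FMT-CON 2 (509 genes) or FMT-DSS 4 (410 genes). In FMT-SP against FMT-DSS, 1 member and 314 genes became 9 and 794 without FMT-DSS 3, and 3 and 798 without FMT-DSS 1. The member count became 0 without FMT-DSS 2 (159 genes), FMT-DSS 4 (149 genes), FMT-SP 1 (210 genes) or FMT-SP 2 (262 genes). In FMT-SP against FMT-CON array weights gave 6 members and 1146 genes, against 0 members and 45 genes in the main fit. The median difference of the members in FMT-SP against FMT-DSS, 0.08, ran from 0.0051 (FMT-DSS 4 left out) to 0.094 when single libraries were left out and was -0.016 without FMT-DSS 2 and FMT-DSS 4. The latter also moved the split of the members in that comparison from 40 higher and 19 lower to 27 and 32. Among others, the direction turned in Dnajc28 (-0.019), Hspa8 (-0.035), Hsph1 (-0.014) and Hspa5 (from 0.14 to -0.20). The r of Hspa1a and Hspa1b passed the adjusted threshold at 0.67 with median-ratio rescaling (adjusted permutation p = 0.0256) and 0.73 with quantile normalization (0.00740), and ran from 0.48 to 0.70 when single libraries were left out (adjusted p 0.0336 without FMT-CON 4 and 0.0287 without FMT-DSS 1). The r of Hspd1 and Hspe1 ran from -0.075 to 0.10 when single libraries were left out and was 0.62 without those numbered 4. The r of Hsph1 and Dnajb1 ran from -0.053 (FMT-DSS 4 left out) to 0.55 and was -0.041 without FMT-DSS 2 and FMT-DSS 4. The r of Hspa5 and Hsp90b1 ran from 0.77 to 0.93 and was 0.68 without FMT-DSS 2 and FMT-DSS 4. The cause of these changes was not tested.

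With the replicate number as a block, 0 members passed in each comparison, and 9, 3 and 0 of 59 had an unadjusted p under 0.05 in limma. Over all 12559 tested genes the counts were 1274, 885 and 310, so they rose beyond the members as well. The labels give the numbers no meaning, and not all numbers paired: the correlation of deviations between libraries of the same number ran from 0.69 to 0.84 for number 4 and from 0.24 to 0.53 for number 2, but reached down to -0.33 for number 1 and -0.45 for number 3. Of these 12 pairs 9 were over 0.1, and 7 of 12 libraries matched their own number best.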
